A study of Arabidopsis thaliana with 29 samples.

Results

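The transposable elements of Arabidopsis thaliana chromosome 4 were taken as every locus of the deposited count table whose identifier starts with AT4TE. There were 4967 such elements among 59999 loci, and 31189 of those loci were transposable elements of any chromosome. Identifier numbers run along the chromosome, from AT4TE00010 to AT4TE90160 in the table. They count elements and not bases, so positions below are positions in that order. The table gives no element family, length or coordinate, so levels are compared between libraries and not between elements.

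The fusca group was the line 2x35S::GFP-HY5/hy5 with the fusca phenotype. Fusca names seedlings with a dark purple pigment and arrested growth, as in mutants of light signalling repressors. The GFP-HY5 group was the same 2x35S::GFP-HY5/hy5 line, listed without that phenotype. Both carry a GFP fusion of HY5, a transcription factor that promotes light-grown development, under a promoter active in most cells, in a background mutant for the endogenous HY5 gene. The third group was WT, whose accession the labels do not give. Whole seedlings were 7 days old and grown in light in all 3 groups. The cycle was 16 h light and 8 h dark at 100 µmol per square metre per second after 3 days of stratification. The labels also give a sucrose fraction of 0.01 for all 3 groups. The fusca and WT groups had 3 libraries each. The 3 GFP-HY5 columns held identical counts, so they were used as 1 library and its differences have no replicate check. Nothing in the labels says that replicates came from separate cultures, so p-values measure only the spread between these libraries. The labels name 1 transgenic line and give no number of plants per library.

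Transposable elements are mobile or formerly mobile DNA sequences that plants keep silent through DNA methylation, histone H3 lysine 9 methylation and small RNAs that guide methylation to matching sequences. In Arabidopsis they are most dense around the centromeres, and the short arm of chromosome 4 also carries a heterochromatic knob in some accessions. Mutants that lose methylation release transcripts from many elements at once, often from neighbours in the same stretch of heterochromatin.

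Counts assigned to loci totalled 11894766 to 12449547 in the fusca libraries, 12451585 in the GFP-HY5 library and 11860094 to 12545563 in the WT libraries. HY5 itself had 129, 187 and 130 CPM (counts scaled to library size) in fusca, 77.4 CPM in GFP-HY5 and 14.1, 16.2 and 12.1 CPM in WT. RBCS1A, which encodes a small subunit of the carbon-fixing enzyme Rubisco and marks green tissue, had 757, 1653 and 710 CPM in fusca, 19532 CPM in GFP-HY5 and 22139, 22287 and 26598 CPM in WT. The green-tissue marker was therefore low in all 3 fusca libraries. In whole seedlings, a smaller share of a cell type and less RNA per cell cannot be told apart.

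Chromosome 4 elements gave more reads in fusca and in GFP-HY5 than in WT. Their CPM summed to 3851, 3896 and 4119 in fusca, 6533 in GFP-HY5 and 1499, 1401 and 1484 in WT. The fusca and WT libraries did not overlap. The means were 3955 ± 144 CPM in fusca and 1461 ± 52.9 CPM in WT (SD, n = 3 each). The exact permutation test gave p = 0.1, 2-sided, which is the smallest value that 3 libraries against 3 allow. Elements with at least 10 counts numbered 315, 287 and 314 in the fusca libraries, 293 in the GFP-HY5 library and 157, 156 and 150 in the WT libraries. Most elements stayed without signal, since 3391 had no count in any of the 7 distinct libraries.

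Some of the elements that gained reads had no count in WT. Of 4154 chromosome 4 elements with 0 counts in all 3 WT libraries, 57 (1.37%) had at least 10 counts in every fusca library and 70 (1.69%) had at least 10 counts in the GFP-HY5 library. Among 26670 other loci with 0 counts in WT, 89 (0.334%) reached 10 counts in every fusca library and 89 (0.334%) did in GFP-HY5. Those other loci include 5956 chromosome 1 elements, of which 40 reached 10 counts in every fusca library and 45 in GFP-HY5. The numbers were 2 and 4 of 5126 elements of chromosome 2, 9 and 13 of 5480 of chromosome 3, and 2 and 8 of 5564 of chromosome 5.

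A test of fusca against WT (edgeR's quasi-likelihood test, Benjamini-Hochberg adjustment over all loci tested, adjusted p under 0.05) was possible for 284 of the elements, and 4683 had too few counts. Of those tested, 136 (47.9%) rose in fusca, where 16.7% of all loci tested did, and 38 (13.4%) fell, where 18.4% of all loci did. In total 174 were called (61.3%, against 35.1% of all loci) and 110 were not. The fusca and WT libraries did not overlap at 189 tested elements (66.5%), where this held at 49.8% of all loci tested. The median log2 fold change was 0.80 over the tested elements and 0.05 over all tested loci. These shares depend on how an element could enter the test. Of the 284, 159 did not reach the count filter in all 3 WT libraries and entered wholly or partly through fusca, and 127 of the increases and none of the decreases came from them. Of the 125 that did reach it in all 3 WT libraries, 9 rose, 38 fell and 78 were not called, with a median log2 fold change of -0.27.

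The increases were mostly steep. Among the 136 elements that rose, 53 had 0 counts in every WT library and 99 had at most 3 counts in each. The fitted change was at least 8-fold for 114 and under 2-fold for 5. Of the 136, 127 did not reach the count filter in all 3 WT libraries, so the filter itself favoured steep changes. The elements that rose summed to 2984 ± 117 CPM in fusca, 5030 CPM in GFP-HY5 and 82.8 ± 10.1 CPM in WT. Element by element, GFP-HY5 was above all fusca libraries at 35 of the 136, within their range at 32 and below all of them at 69. The higher sum in GFP-HY5 thus did not hold at most of these elements. They were chosen by their rise in fusca, which favours fusca in this count. It also leaves out 41 elements past 4-fold higher in GFP-HY5 than in WT that were not tested in fusca. The 38 that fell summed to 172 ± 20.5 CPM in fusca, 578 CPM in GFP-HY5 and 692 ± 40.4 CPM in WT (SD, n = 3 in fusca and in WT). Both sets were chosen by the contrast of fusca and WT, so the direction of their fusca and WT sums was fixed by that choice.

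The increases were concentrated in the early part of the numbering by count and by level. The middle 50% of all chromosome 4 elements had id numbers between 14750 and 36845, with a median of 22460. The elements that rose in fusca had their middle 50% between 12760 and 21115, with a median of 16510. The elements that fell lay further along, between 22125 and 42895 with a median of 34015. All tested elements had their middle 50% between 13515 and 42895, with a median of 21640. The id numbers from 8000 to just under 26000, a range drawn after the values were seen, hold 2539 elements (51.1%). They hold 106 of the 136 increases against 12 of the 38 decreases. Of the 157, 156 and 150 elements with at least 10 counts in the WT libraries, 39, 37 and 34 lay in that range. All 38 decreases reached the count filter in all 3 WT libraries, so they could lie only where WT had reads. All elements of that range, tested or not, summed to 2818, 2767 and 3031 CPM in fusca, 5115 CPM in GFP-HY5 and 218, 211 and 237 CPM in WT. The other 2428 elements summed to 1032, 1129 and 1088 CPM in fusca, 1418 CPM in GFP-HY5 and 1281, 1190 and 1247 CPM in WT. Outside the range, the sums of the 3 fusca libraries thus lay below those of the 3 WT libraries and the GFP-HY5 sum lay above them. A few elements weighed heavily in these sums. AT4TE59630 alone averaged 47.2 CPM in fusca and 197 CPM in WT, while 30 elements rose and 26 fell in fusca there. In GFP-HY5, AT4TE29830 and AT4TE39815, described below, held much of the excess.

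**Figure D1:**
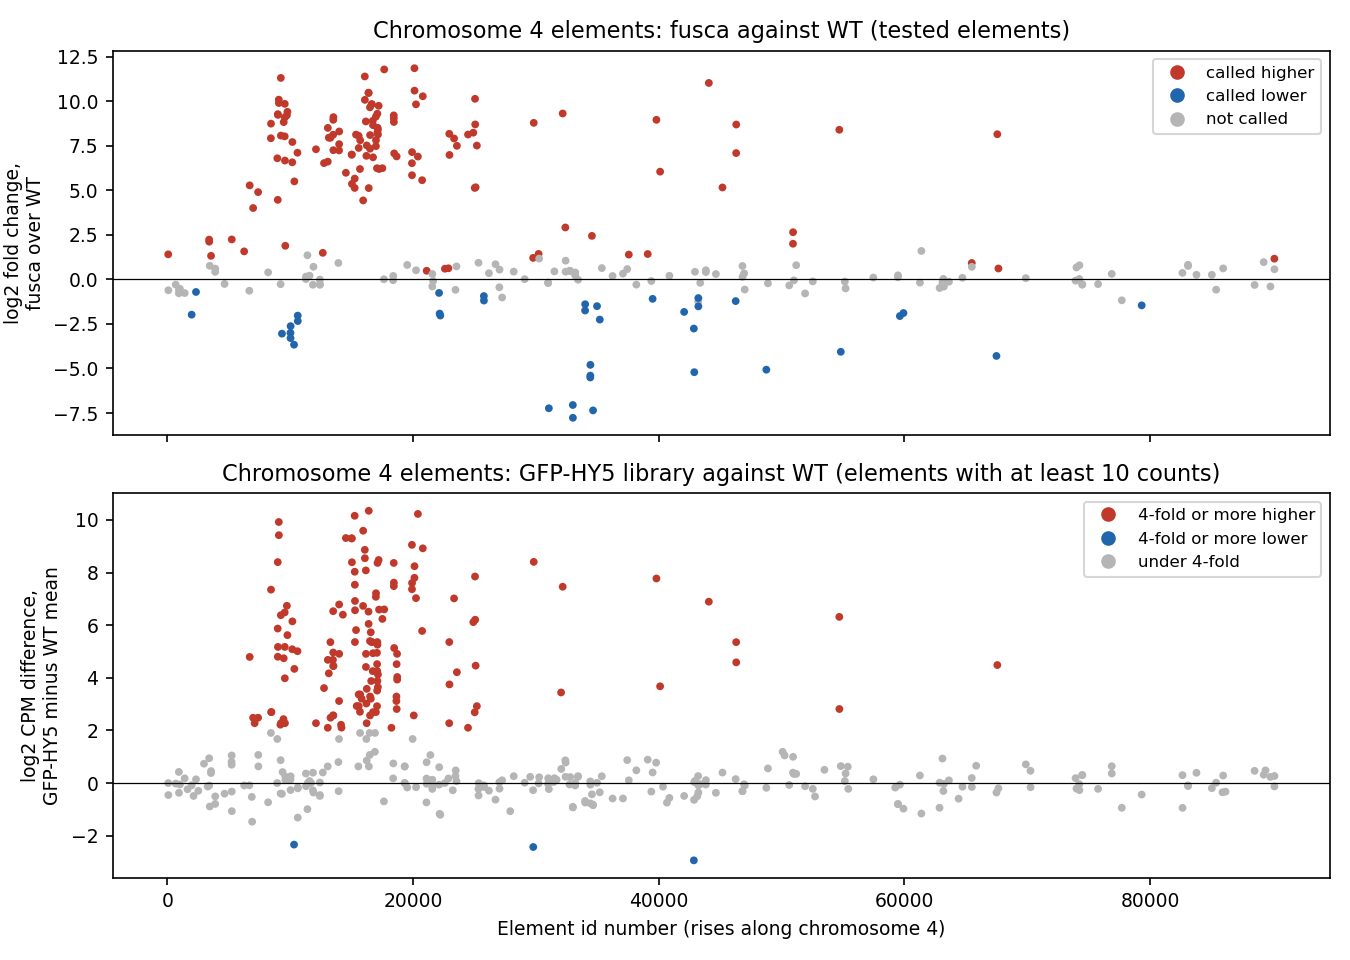
Each chromosome 4 element (point) by its id number (horizontal axis), with the log2 fold change of fusca over WT for the 284 tested elements (upper panel, coloured where called) and the log2 CPM difference of the GFP-HY5 library minus the WT mean for the 404 elements with at least 10 counts (lower panel, coloured at 4-fold or more). The increases in fusca and GFP-HY5 lie mostly between id numbers 8000 and 26000, and the decreases in fusca are spread further along.

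In windows of 10000 id numbers, the stretch that starts at 10000 stood out. It held 88 tested elements, of which 68 rose and 6 fell in fusca. Of the 68, 44 lay in the run from AT4TE13985 to AT4TE17510, where no tested element reached the count filter in all 3 WT libraries. Those 44 entered the test wholly or partly through fusca, so the count of increases is partly set by the filter. This window's 1415 elements summed to 1197 ± 121 CPM in fusca, 3118 CPM in GFP-HY5 and 96.2 ± 5.68 CPM in WT (SD, n = 3 in fusca and in WT). The window before it, of 666 elements, had 27 increases and 3 decreases among 43 tested elements. The window that starts at 20000 had 22 increases and 5 decreases among 41, and the one that starts at 30000 had 7 increases and 12 decreases among 36. From id number 70000 on, 22 elements were tested in all, and 1 rose (AT4TE90110, 3.08 CPM in fusca and 1.37 CPM in WT on average) and 1 fell (AT4TE79310, 0.454 CPM in fusca and 1.28 CPM in WT on average). In windows of 1000, the one that starts at 16000 had the most calls, with 19 of 19 tested elements higher in fusca. None of these 19 reached the count filter in all 3 WT libraries, so they entered the test through fusca and could be called only in that direction. The 2 elements beyond 70000 are named because they were the only calls there, after their values were seen.

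**Figure D2:**
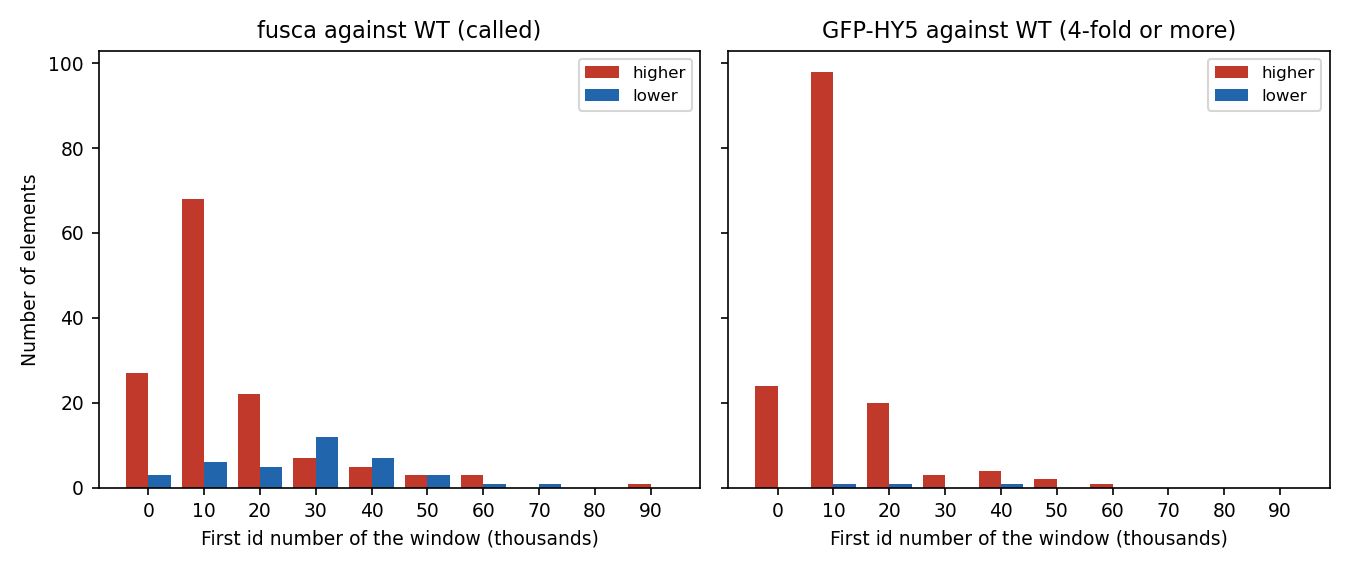
Number of chromosome 4 elements (vertical axis) in each window of 10000 id numbers (horizontal axis) that were called higher or lower in fusca against WT (left panel) or were past 4-fold in the GFP-HY5 library against WT (right panel). The window that starts at 10000 has the tallest bars, with 68 increases in fusca and 98 in GFP-HY5.

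Within that range the gain in summed CPM came in separate stretches. The window of 1000 that starts at 9000 summed to 990, 1158 and 1071 CPM in fusca, 913 CPM in GFP-HY5 and 19.9, 17.3 and 17.1 CPM in WT. The next window, which starts at 10000, summed to 20.8, 18.2 and 24.7 CPM in fusca, 46.9 CPM in GFP-HY5 and 26.7, 25.6 and 25.97 CPM in WT. All 3 fusca libraries were thus below WT there and GFP-HY5 was above it. The sum hides changes both ways, since all 10 elements tested in this window were called, 4 higher and 6 lower in fusca. Of the 4, AT4TE10185 had 7.56, 9.16 and 9.11 CPM in fusca, 13.2 CPM in GFP-HY5 and 0, 0 and 0.101 CPM in WT. Id numbers from 11000 to just under 13000 summed to 55.7, 39.3 and 51.4 CPM in fusca, 38.7 CPM in GFP-HY5 and 40.5, 38.0 and 37.7 CPM in WT. The window that starts at 16000 summed to 418, 245 and 506 CPM in fusca, 741 CPM in GFP-HY5 and 0.272, 0.181 and 1.61 CPM in WT. High windows were thus parted by windows whose summed CPM had no gain in fusca or a small one, though single elements rose in them. From 11000 to just under 13000 the GFP-HY5 sum was within the WT range and 1 fusca library overlapped it. A second such gap followed further on. Those from 18000 to just under 21000 summed to 718, 675 and 744 CPM in fusca, 1269 CPM in GFP-HY5 and 28.2, 22.7 and 31.7 CPM in WT. Those from 21000 to just under 23000 summed to 93.2, 86.0 and 103 CPM in fusca, 82.4 CPM in GFP-HY5 and 78.7, 79.3 and 90.3 CPM in WT. In this second gap 5 elements rose and 3 fell in fusca, and the fusca and WT sums overlapped. From 26000 to just under 29000 no element was called, and 277 elements summed to 21.4 ± 2.64 CPM in fusca, 18.01 CPM in GFP-HY5 and 16.5 ± 0.855 CPM in WT. The bounds of the stretches longer than 1 window were drawn after their values were seen.

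**Figure D3:**
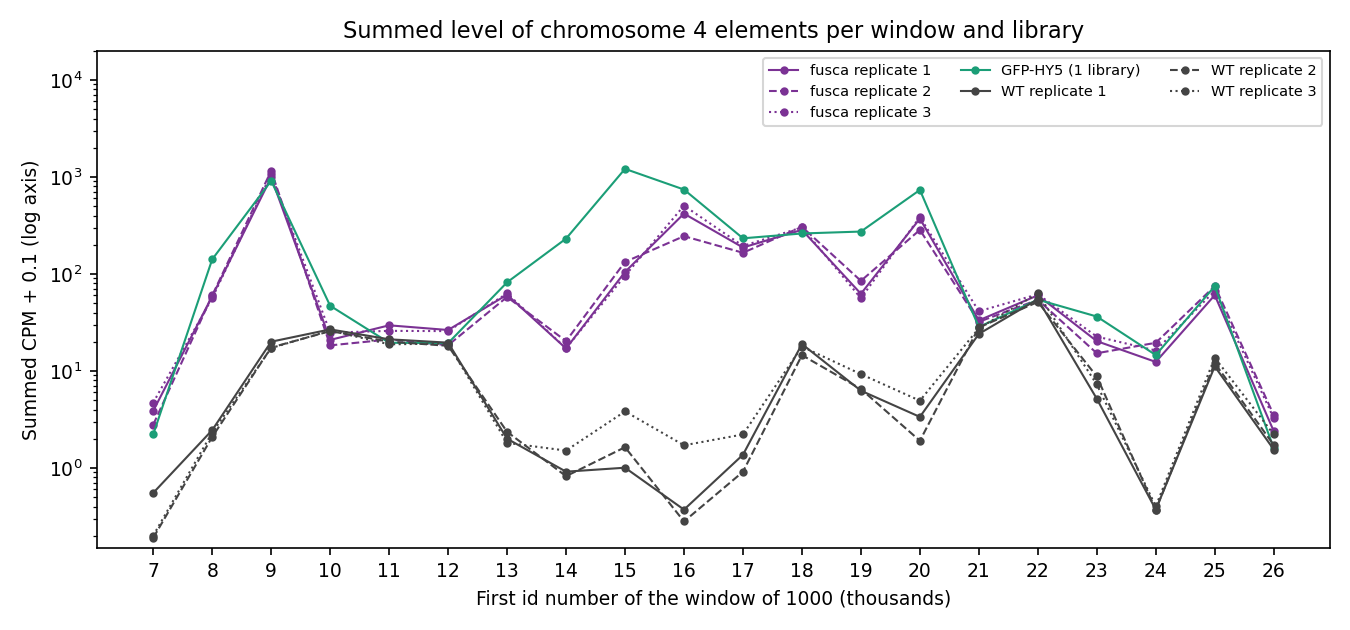
Summed CPM + 0.1 (log axis) of all chromosome 4 elements in each window of 1000 id numbers from 7000 to 26000, 1 line per distinct library. The fusca and GFP-HY5 lines stand above the WT lines at windows 7000 to 9000, furthest up in CPM at 9000. At 10000 the 3 fusca lines are below WT and GFP-HY5 is above, near 11000 and 12000 the lines come close, from 13000 to 20000 fusca and GFP-HY5 are above WT again, and at 21000 and 22000 the lines come close.

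The longest run of neighbours lay between AT4TE13985 and AT4TE17510. All 44 elements tested there rose, with log2 fold changes of 4.43 to 11.38. None of the 44 reached the count filter in all 3 WT libraries, so an element could be tested there only where fusca was high, and the unbroken run is partly set by the filter. The levels of all 576 elements of the stretch need no filter, but its bounds are the ends of the run. Those bounds therefore come from the same fusca calls, and the levels are no separate check of them. The 44 tested elements alone summed to 681, 520 and 763 CPM in fusca. All 576 elements summed to 709, 541 and 799 CPM in fusca, 2428 CPM in GFP-HY5 and 2.08, 2.62 and 7.95 CPM in WT. At least 10 counts were reached by 57, 54 and 59 of them in the fusca libraries, by 62 in the GFP-HY5 library and by 0, 0 and 1 in the WT libraries. The stretch still held 375 elements with no count in any library. In all, 16 runs of at least 3 tested neighbours called in the same direction were found, 11 of increases with 104 elements and 5 of decreases with 17.

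Within the long run, AT4TE16080 and its neighbour AT4TE16085 were among the steepest. AT4TE16080 had 129, 46.9 and 154 CPM in fusca, 88.0 CPM in GFP-HY5 and 0, 0 and 0.101 CPM in WT. That single WT count gives a ratio of fusca to WT of 3587 with a 95% counting interval of 643 to 141690 (edgeR adjusted p = 6.2e-06). AT4TE16085 had 127, 43.3 and 165 CPM in fusca, 85.4 CPM in GFP-HY5 and 0, 0 and 0.302 CPM in WT. In both, fusca replicate 2 was the lowest of the fusca libraries and all 3 lay far above WT. Whether such neighbours are separate transcripts was not tested, and the labels do not say whether the kit keeps strand, so reads of an element and of an overlapping gene or antisense RNA cannot be told apart. The pair AT4TE16640 and AT4TE16645 had identical counts in every library, which were 132, 144 and 120 in fusca, 73 in GFP-HY5 and 0 in all 3 WT libraries. In all, 6 elements had counts within 5% of another element's in every library, and 4 of them were called, all higher in fusca.

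Among the 12 named for the largest increases, 6 had no WT count at all. AT4TE17660 had 38.1, 31.0 and 36.8 CPM in fusca, 15.4 CPM in GFP-HY5 and 0 in WT, which is at least 125-fold higher in fusca with 3 counts per library as the floor (edgeR adjusted p = 1.4e-06). AT4TE09245 had 24.97, 26.4 and 24.8 CPM in fusca, 13.2 CPM in GFP-HY5 and 0 in WT, at least 90.2-fold higher in fusca. The fusca libraries of these elements lay close together and above the GFP-HY5 library. AT4TE44080 had 19.5, 18.6 and 24.5 CPM in fusca, 19.0 CPM in GFP-HY5 and 0 in WT, at least 74.2-fold higher in fusca. It stands far along the numbering, away from the stretches above. AT4TE20120 had 42.3, 12.4 and 56.2 CPM in fusca, 35.7 CPM in GFP-HY5 and 0 in WT. Its fusca libraries spread over more than 4-fold but did not overlap WT (edgeR adjusted p = 0.00028). AT4TE16380 had 12.01, 18.5 and 12.5 CPM in fusca, 14.6 CPM in GFP-HY5 and 0 in WT, and AT4TE16390 had 10.9, 20.2 and 11.3 CPM in fusca, 10.5 CPM in GFP-HY5 and 0 in WT. In contrast to AT4TE20120, fusca replicate 2 was the highest of the fusca libraries at both. AT4TE20125, the neighbour of AT4TE20120, was more even, with 69.8, 54.7 and 66.0 CPM in fusca, 57.1 CPM in GFP-HY5 and 0, 0 and 0.101 CPM in WT.

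From id number 8000 to just under 10000, a pair of neighbours held most of the reads in fusca and GFP-HY5. AT4TE09085 had 447, 518 and 494 CPM in fusca, 412 CPM in GFP-HY5 and 0.272, 0.271 and 1.01 CPM in WT. Its log2 fold change in fusca was 9.89 ± 0.36 (SE, edgeR adjusted p = 3.5e-07). AT4TE09080 had 428, 485 and 448 CPM in fusca, 399 CPM in GFP-HY5 and 0.181, 0 and 1.11 CPM in WT, with a log2 fold change of 10.08 ± 0.54 (SE, edgeR adjusted p = 1.4e-06). The 8 tested neighbours from AT4TE08435 to AT4TE09085 all rose. None of them could pass the count filter through WT, whose libraries held at most 11 counts at any of them, so they too could be called only in that direction. They summed to 936, 1075 and 1000 CPM in fusca, 949 CPM in GFP-HY5 and 0.453, 0.451 and 2.72 CPM in WT. The GFP-HY5 library lay within the range of the fusca libraries in this run and above all of them in the long run from AT4TE13985.

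Beyond id number 26000 the steep increases were mostly scattered elements. AT4TE29830 averaged 73.1 CPM in fusca, 99.7 CPM in GFP-HY5 and 0.161 CPM in WT. AT4TE39815 averaged 35.8 CPM in fusca, 47.9 CPM in GFP-HY5 and 0.064 CPM in WT. AT4TE54700 had 12.1, 11.6 and 17.9 CPM in fusca, 14.9 CPM in GFP-HY5 and 0, 0 and 0.101 CPM in WT. These 3 rose in fusca and were named after their values were seen. AT4TE29830 lay within a run of 3 tested neighbours called higher, from AT4TE29780 to AT4TE30225, of which it held most of the CPM. Some other increases there had little signal in GFP-HY5. AT4TE34565 had 5.40, 8.65 and 7.37 CPM in fusca, 0.883 CPM in GFP-HY5 and 1.90, 0.903 and 1.11 CPM in WT, with a log2 fold change of 2.44 ± 0.32 in fusca (SE, edgeR adjusted p = 0.00032).

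The fusca libraries did not act alike at every element. Of the 136 elements that rose, fusca replicate 2 was the lowest of the 3 at 46 and the highest at 74. It was at most 0.5 times the lower of the other two at 12 elements and at least 2 times the higher at 8. Without it, 169 elements rose and 44 fell, of 317 tested. Calls over all loci also went from 7651 to 10895, and those higher in fusca from 3639 to 5368.

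Decreases in fusca were at elements that WT expressed, as a call in that direction needed WT reads. The 3 largest of those with at least 5 CPM in WT, AT4TE33010, AT4TE34430 and AT4TE48760, were nearly silent in fusca. AT4TE33010 had 0, 0.0727 and 0.0670 CPM in fusca, 3.88 CPM in GFP-HY5 and 7.96, 6.86 and 7.45 CPM in WT (edgeR adjusted p = 2.7e-06). AT4TE34430 had 0.0675, 0 and 0.335 CPM in fusca, 6.97 CPM in GFP-HY5 and 7.51, 5.96 and 6.64 CPM in WT (edgeR adjusted p = 3.3e-05). The GFP-HY5 library was at the WT level for AT4TE34430 and between the groups for AT4TE33010. AT4TE48760 had 0.270, 0 and 0.536 CPM in fusca, 8.39 CPM in GFP-HY5 and 10.05, 9.84 and 8.76 CPM in WT, with a log2 fold change of -5.07 ± 0.48 (SE, edgeR adjusted p = 3.5e-05). There were 3 elements with no count in any fusca library, AT4TE31060, AT4TE33015 and AT4TE34655, and the largest bound among them was at least 10.6-fold lower in fusca for AT4TE33015.

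The longest run of decreases held 5 tested neighbours from AT4TE34010 to AT4TE34440, which summed to 36.2, 61.0 and 60.2 CPM in fusca, 103 CPM in GFP-HY5 and 180, 142 and 171 CPM in WT. AT4TE34015 led it, with 23.1, 47.9 and 32.5 CPM in fusca, 53.9 CPM in GFP-HY5 and 98.5, 78.7 and 95.3 CPM in WT. Its log2 fold change in fusca was -1.40 ± 0.24 (SE, edgeR adjusted p = 0.0017). The groups did not overlap, and GFP-HY5 stood between them. Of the 38 elements that fell in fusca, GFP-HY5 was below all WT libraries at 23, within the WT range at 11 and above all WT libraries at 4.

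AT4TE59630 had the highest mean CPM in WT of all chromosome 4 elements. It had 41.3, 55.4 and 44.9 CPM in fusca, 188 CPM in GFP-HY5 and 193, 187 and 211 CPM in WT, with a log2 fold change of -2.06 ± 0.16 in fusca (SE, edgeR adjusted p = 1.1e-05). AT4TE54820 had 0.540, 0.727 and 9.91 CPM in fusca, 95.4 CPM in GFP-HY5 and 85.2, 59.1 and 45.1 CPM in WT, with a log2 fold change of -4.07 ± 0.80 in fusca (SE, edgeR adjusted p = 0.0035). Fusca replicate 3 stood apart there but stayed below WT. AT4TE74230, also among the 5 highest in WT, was not called. It had 125, 154 and 112 CPM in fusca, 124 CPM in GFP-HY5 and 128, 127 and 129 CPM in WT.

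**Figure D4:**
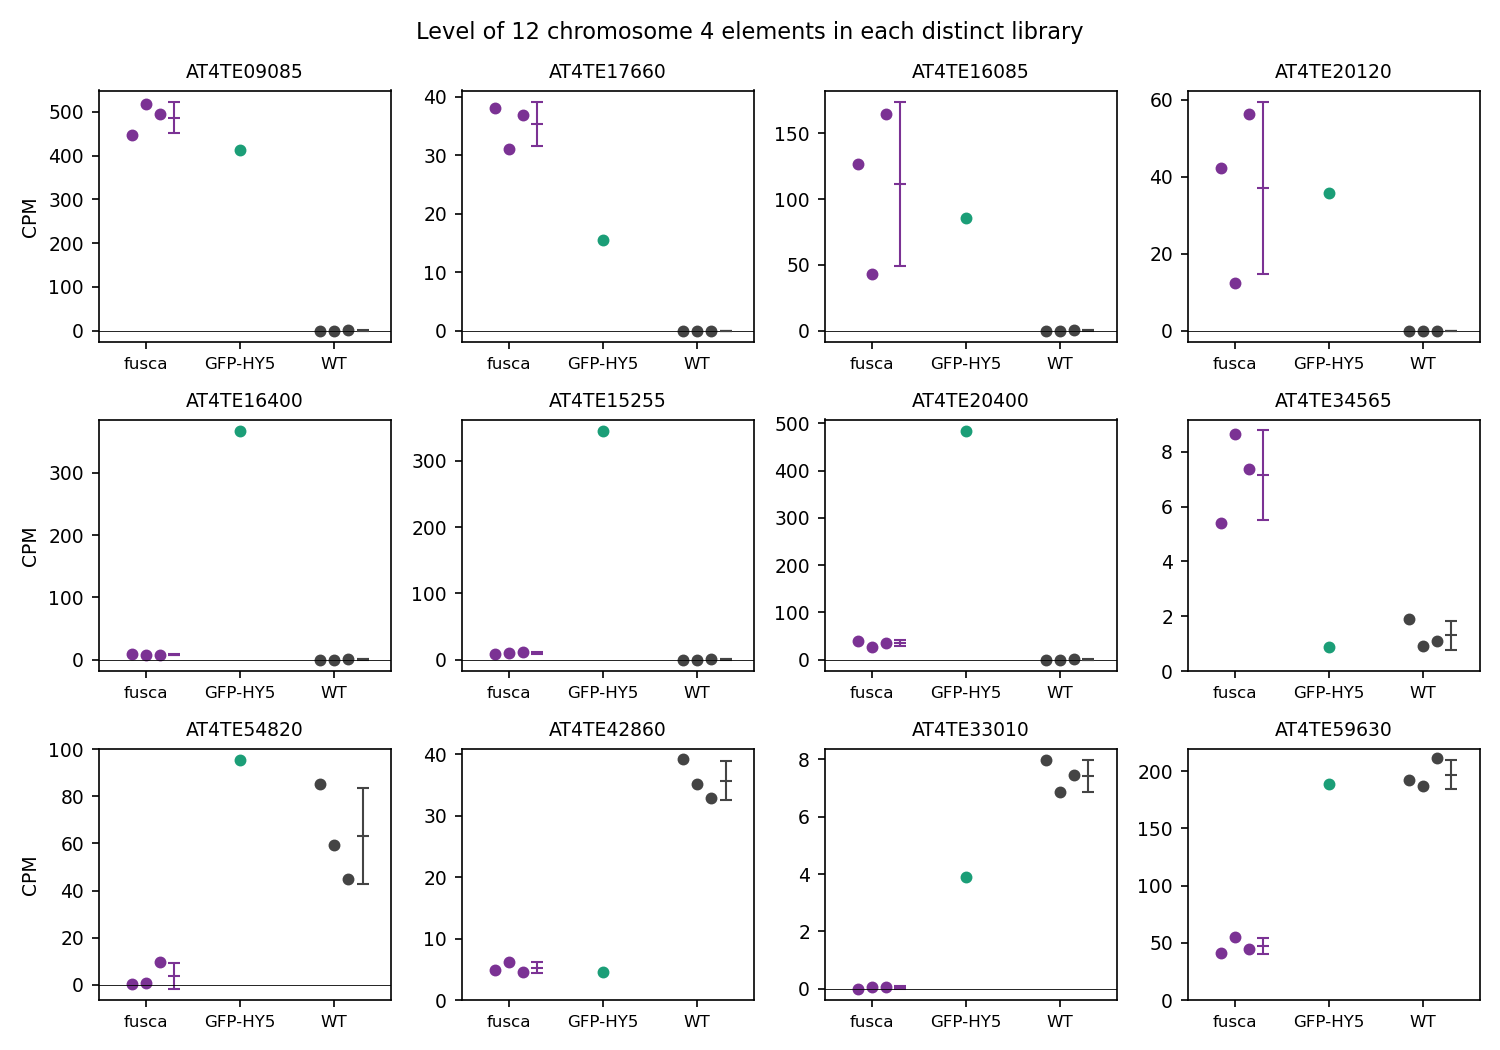
CPM (vertical axis, from each element's own scale) of 12 chromosome 4 elements in every distinct library, as points for fusca, GFP-HY5 and WT, with bars for the mean ± SD of the 3 fusca and the 3 WT libraries. Elements such as AT4TE09085 were high in fusca and GFP-HY5, AT4TE16400 in GFP-HY5 above all, AT4TE34565 in fusca, and AT4TE59630 was low in fusca.

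In the GFP-HY5 library, elements were counted as changed against WT where log2 CPM differed by at least 4-fold from the WT mean, with no test. Of 404 chromosome 4 elements with at least 10 counts in some library, 152 (37.6%) were past 4-fold higher, where 1.59% of all such loci were. In either direction 155 were past 4-fold, where 1.66% of all such loci were. Past 4-fold lower were 3 (0.743%), where 0.0776% of all such loci were. The median difference was 0.46 on the log2 scale over these elements and 0.01 over all such loci. Of the 152 elements, 84 had 0 counts in all WT libraries. An element could enter this count through the GFP-HY5 library alone, and then had to differ. The filter on fusca and WT left 41 of the 152 untested in fusca.

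The 152 elements had 41287, 38137 and 44869 counts in the fusca libraries, 58246 in the GFP-HY5 library and 37, 39 and 161 in the WT libraries. WT replicate 3 thus held about 4 times the counts of the other WT libraries at the elements chosen for being high in GFP-HY5. At 35 of the 152, WT replicate 3 was the only WT library with a count, against 4 for replicate 1 and 6 for replicate 2. Its sum of 16.2 CPM lay far under the 5141 CPM of the GFP-HY5 library and the 2771 to 3004 CPM of the fusca libraries. The source of these WT counts was not tested. Without WT replicate 3, 152 elements were past 4-fold higher in GFP-HY5 and 148 of 334 tested rose in fusca.

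By position, the middle 50% of the 152 elements lay between 13505 and 18655, with a median of 16380. The 10000 window held 98 of the 152, the 0 window 24 and the 20000 window 20. Between AT4TE13985 and AT4TE17510, 73 elements had at least 10 counts in some library, of which 64 were past 4-fold higher in GFP-HY5, 0 past 4-fold lower and 9 were not past 4-fold. The 3 elements past 4-fold lower were AT4TE10320, AT4TE29790 and AT4TE42860. AT4TE42860 had 4.93, 6.25 and 4.62 CPM in fusca, 4.50 CPM in GFP-HY5 and 39.2, 35.1 and 32.8 CPM in WT. AT4TE10320 had 0.540, 0.363 and 1.00 CPM in fusca, 1.501 CPM in GFP-HY5 and 8.78, 7.85 and 8.15 CPM in WT. Both were low in all libraries of the transgenic line. AT4TE29790 had 7, 5 and 2 counts in fusca, 0 in GFP-HY5 and 12, 7 and 5 counts in WT.

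The 3 largest differences between GFP-HY5 and WT were at elements that were much lower in fusca than in GFP-HY5. AT4TE16400 had 8.37, 7.85 and 7.70 CPM in fusca, 367 CPM in GFP-HY5 and 0, 0 and 0.705 CPM in WT. AT4TE20400 had 40.3, 27.8 and 35.5 CPM in fusca, 484 CPM in GFP-HY5 and 0.0905, 0.181 and 0.604 CPM in WT. AT4TE15255 had 8.77, 9.74 and 12.1 CPM in fusca, 345 CPM in GFP-HY5 and 0, 0 and 0.906 CPM in WT. Each was far higher in the GFP-HY5 library than in any fusca library, and each fusca library was above every WT library. AT4TE15945 had 7.02, 9.37 and 6.56 CPM in fusca, 278 CPM in GFP-HY5 and 0.0905, 0 and 1.01 CPM in WT. AT4TE14540 had 15.3, 18.5 and 15.5 CPM in fusca, 208 CPM in GFP-HY5 and 0, 0.0903 and 0.705 CPM in WT.

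Set directly against GFP-HY5, fusca was past 4-fold lower at 50 of the 404 elements (12.4%, where 4.16% of all such loci were) and past 4-fold higher at 10 (2.48%, where 1.91% were). In either direction there were 60, where 6.07% of all such loci were. The median difference was 0.08 over the 404 elements and 0.00 over all such loci on the log2 scale. The elements lower in fusca had their middle 50% between id numbers 14295 and 20745. The window that starts at 15000 held 13 of the 50, and the stretch from AT4TE13985 to AT4TE17510 held 21 against 0 higher in fusca. That window summed to 105, 133 and 95.8 CPM in fusca, 1211 CPM in GFP-HY5 and 0.905, 1.53 and 3.72 CPM in WT. In the next-but-one window, which starts at 17000, the sums were 187, 165 and 194 CPM in fusca and 233 CPM in GFP-HY5. The excess of GFP-HY5 over fusca was thus larger in the window at 15000 than in the one at 17000. It was not particular to the window at 15000. The window at 14000 summed to 16.9, 20.2 and 17.0 CPM in fusca and 231 CPM in GFP-HY5. The window at 19000 summed to 62.3, 84.7 and 56.1 CPM in fusca and 273 CPM in GFP-HY5. At 18000 the order was the other way, with 284, 306 and 302 CPM in fusca and 261 CPM in GFP-HY5. With 1 GFP-HY5 library, a difference of the group and one of the library cannot be told apart.

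**Figure D5:**
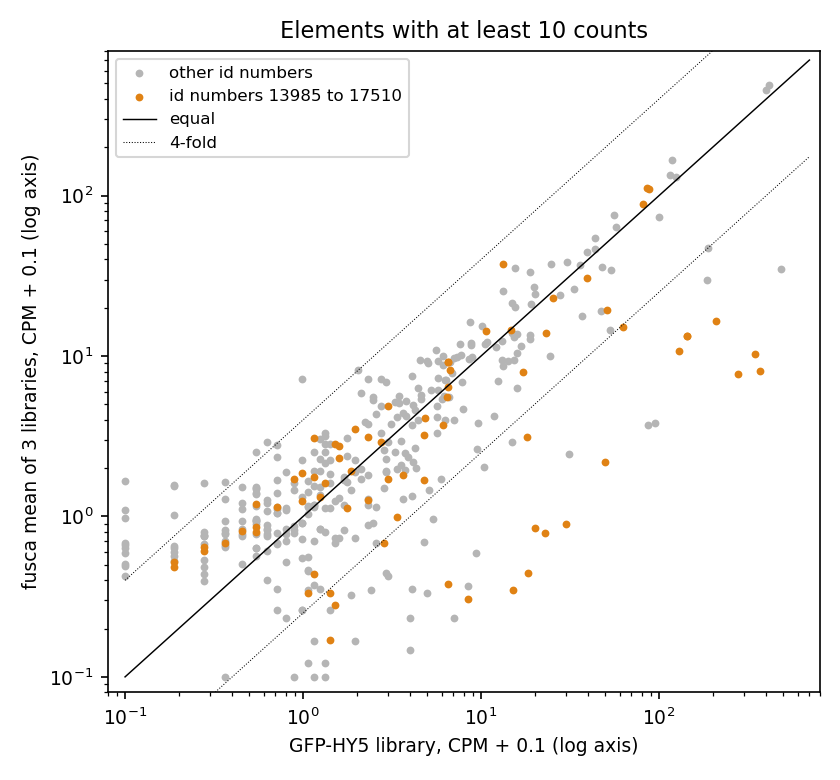
Mean CPM + 0.1 of the 3 fusca libraries (vertical log axis) against CPM + 0.1 of the GFP-HY5 library (horizontal log axis) for the 404 elements with at least 10 counts in some library, with elements numbered 13985 to 17510 in orange, a solid line of equal level and dotted lines at 4-fold of the plotted values. Of the orange elements, 21 were past 4-fold lower in fusca by log2 CPM with its prior count and 0 past 4-fold higher.

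Of the tested elements, 47.9% rose in fusca on chromosome 4, against 31.6% on chromosome 1, 12.9% on chromosome 2, 19.0% on chromosome 3 and 19.3% on chromosome 5. Past 4-fold higher in GFP-HY5 were 152 of 404 elements with at least 10 counts on chromosome 4 (37.6%), against 103 of 489 on chromosome 1 (21.1%), 8 of 220 on chromosome 2 (3.64%), 20 of 310 on chromosome 3 (6.45%) and 15 of 376 on chromosome 5 (3.99%). Such shares depend on how elements could enter the test or the count. Chromosome 1 elements gained a similar amount of summed CPM in fusca as chromosome 4 elements did. Their sums were 4658 CPM in fusca, 5613 CPM in GFP-HY5 and 2146 CPM in WT (means in fusca and WT). In that order the sums were 2435, 3500 and 3382 CPM on chromosome 2 and 2632, 2116 and 1967 CPM on chromosome 3. On chromosome 5 they were 2151, 2153 and 2105 CPM. The difference between chromosomes was not tested.

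The 22 genes of a list of DNA methylation and heterochromatin factors were all tested in fusca. Of these, 2 rose, 2 fell and the median log2 fold change was 0.16, where 35.1% of all loci were called and the median of all tested loci was 0.05. These 4 calls became 2 without WT replicate 2 or without WT replicate 3, 9 without fusca replicate 2 and 12 when scaled by library size alone. RDR2, the RNA-dependent RNA polymerase of RNA-directed DNA methylation, had 10.5, 10.9 and 12.99 CPM in fusca, 7.94 CPM in GFP-HY5 and 8.78, 7.13 and 6.64 CPM in WT (edgeR adjusted p = 0.030). HDA6, a histone deacetylase, had 37.4, 54.9 and 37.1 CPM in fusca, 29.6 CPM in GFP-HY5 and 27.4, 28.98 and 27.7 CPM in WT (edgeR adjusted p = 0.022). CMT3, a methyltransferase of CHG sites, had 17.1, 21.4 and 25.4 CPM in fusca, 45.3 CPM in GFP-HY5 and 41.3, 40.1 and 32.8 CPM in WT (edgeR adjusted p = 0.0051). ROS1, a DNA demethylase, had 8.10, 7.19 and 14.6 CPM in fusca, 15.1 CPM in GFP-HY5 and 25.5, 24.4 and 18.3 CPM in WT (edgeR adjusted p = 0.0074). MET1, the maintenance methyltransferase of CG sites, had 50.0007, 73.0 and 62.2 CPM in fusca, 87.7 CPM in GFP-HY5 and 90.6, 90.4 and 75.5 CPM in WT, and did not pass (edgeR adjusted p = 0.057). DDM1, a remodeller of heterochromatin, had 13.7, 24.1 and 17.1 CPM in fusca, 17.9 CPM in GFP-HY5 and 18.2, 16.1 and 14.6 CPM in WT (edgeR adjusted p = 0.60). In the GFP-HY5 library CMT3 and HDA6 were above the WT range, ROS1 below it, and RDR2, MET1 and DDM1 within it.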

How the data were processed

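The deposited table holds raw counts per locus, made by the authors and deposited for all 9 RNA-seq samples, per the file headers. The submitters' processing notes name Trim Galore, STAR, HTSeq and deepTools and the TAIR10 genome, and give no order or role for them. The counting options are not given in the sources used here. The row for reads without a unique alignment held 0 counts in every library. How reads that match more than 1 element were handled is not given, so the level of a single element may depend on it. Of the reads, 48.4% to 48.9% fell in the row without a feature, and 5 rows that name no locus were left out of library sizes and tests. The series' ChIP-seq samples were not used.

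The 3 identical GFP-HY5 columns entered once, so 7 distinct libraries were used. CPM values used TMM factors (edgeR 4.0.16, limma 3.58.1, R 4.3.3). Loci passed filterByExpr on the fusca and WT libraries, and edgeR's quasi-likelihood test was fitted on all distinct libraries with Benjamini-Hochberg adjustment over the 21820 loci tested. GFP-HY5 differences used log2 CPM with a prior count of 2, over loci with at least 10 counts in some library, and were read at 4-fold with no test. Bounds against groups at 0 took 3 counts per library as the floor, and counting intervals are exact at 95% and cover counting error only. The test was checked on simulated counts, with changes set only at loci that had counts in WT. That check does not cover elements near 0 in WT. Gene symbols of the silencing list were matched to RefSeq by locus for 22 of 22 genes.

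Named elements were the 12 largest increases and 8 largest decreases in fusca with at least 5 CPM in the higher group and no overlap, the 8 largest increases and 6 largest decreases in GFP-HY5, the 4 largest differences each way between fusca and GFP-HY5, the 5 highest in WT, the leading element of the 6 windows of 1000 id numbers with the most calls, and the ends of the 3 longest runs. The elements and lists were chosen with earlier results of these data known. Replicate numbers did not pair the libraries and were not used as a block. Alternatives were DESeq2 1.42.0, other scalings, filters, prior counts, folds and windows, and leaving out each library.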

Additional observations from a re-analysis of the deposited data

Results flagged for a closer look

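Reads that fell in more than 1 feature and were counted for none made up 0.748 ± 0.069% of reads in fusca (SD, n = 3) and 0.594% in GFP-HY5, against 0.575 ± 0.004% in WT (SD, n = 3). They stood out because they lie outside the loci compared and were above the WT level. Their loci cannot be read from the table, and how many came from transposable elements was not tested.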

How the results depend on the processing

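Elements called in fusca numbered 165 to 196 and those rising 131 to 167 under other scalings, DESeq2, a stricter filter and a fit on fusca and WT alone. With no count filter 289 were called and 235 rose, and the longest run fell to 11 elements, since 1444 were tested. Scaling by library size alone moved the median of all loci to 0.50 (log2), so that 79.8% of all calls were increases, against 47.6% with TMM, and 167 elements rose and 29 fell. Upper-quartile scaling moved it to 0.20, with 61.1% of all calls increases. Leaving out 1 library gave 178 to 213 calls, 140 to 169 of them higher. Over all loci it gave 5632 to 10895 calls, against 7651 with all libraries. The replicate block gave 171 calls, 135 higher, and same-numbered fusca and WT libraries correlated at -0.045, -0.115 and -0.200.

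The summed CPM of fusca minus WT was 2493.8. It was 3428.9 by library size alone, 2796.9 with upper-quartile factors, 1201.1 without the 10 elements with the highest mean, and 2318.6 to 2645.7 without 1 library. Calls on the silencing list, 4 in all, became 12 by library size alone and 2 to 9 without 1 library (2 without WT replicate 2 or WT replicate 3, 9 without fusca replicate 2). AT4TE74230 had a log2 fold change of 0.02, which was -0.12 to 0.12 without 1 library and 0.46 by library size alone (edgeR adjusted p = 0.016).

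Elements lower in GFP-HY5, 3 at 4-fold, were 5 with a prior count of 0.5, 10 at 2-fold and 0 at 8-fold. Between fusca and GFP-HY5, 2-fold gave 152 (57 higher, 95 lower) and 8-fold 29 (1 higher, 28 lower). The 10 higher in fusca became 16 by library size alone, 21 with a prior count of 0.5, 2 with a prior count of 5 and 5 at 30 counts. The causes were not tested. At this depth an element with 0 counts may still reach 0.201 to 0.302 CPM, and differences of the 1 GFP-HY5 library have no error.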
